A study of Ovis aries with 22 samples.

Results

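Genes of basement membrane collagens were measured in sinus wall from sheep, with and without the Ross procedure, an operation in which the pulmonary root is moved into the aortic position and becomes the pulmonary autograft. The genes were the 6 collagen IV chain genes COL4A1 to COL4A6 and the genes of collagens XV and XVIII, COL15A1 and COL18A1, taken by name from the count tables. All 8 were found among 26200 gene symbols, and all 8 passed the filter on low counts that left 14979 genes for testing. COL4A2 had no row under its symbol. It stood under LOC101115805, and RefSeq pairs that gene number with COL4A2.

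The libraries formed 3 groups by tissue. Autograft sinus was sampled from 3 operated animals 6 months after surgery (autograft replicates 1 to 3). Native aortic sinus and native pulmonary sinus both came from 4 further animals (D3, D4, D5 and D6), which the design text calls non-operated. The labels give no strain, sex or age, and no autograft library shares an animal with a native one. They also give the treatment "Ross surgery" to aortic replicate 1, which is from animal D3. It was kept with the aortic libraries, and the calls of members that change without it are named. For some other genes only the number of fits that ended a call is given.

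Each of the 11 libraries is the sum of 2 sequencing runs and held between 17380599 and 20741334 counts. The defining smooth muscle genes MYH11, ACTA2, CNN1, TAGLN, SMTN and MYOCD were present in all groups. Their summed level was 19312, 34730 and 40629 CPM (counts scaled to library size by TMM) in the autograft libraries, from 41493 to 59883 CPM in the aortic ones and from 41738 to 71816 CPM in the pulmonary ones. Autograft replicate 1 stood apart on the second principal component of all tested genes, at 64.1 against at most 24.2 elsewhere. Pulmonary replicate 1 lay at -9.34 on the first component, next to the aortic libraries (-8.46 to 30.6) and away from the other pulmonary libraries (29.5 to 67.6). The members were therefore also tested without both of these libraries. Pulmonary replicate 1 shares animal D3 with aortic replicate 1, the library labelled with surgery. In whole tissue, fewer cells of a type and less RNA per cell cannot be told apart.

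Collagen IV is the network collagen of basement membranes, the thin sheets that underlie endothelium and wrap each smooth muscle cell. Its chains wind into trimers in fixed combinations. Chains alpha1 and alpha2 make the trimer found in nearly every basement membrane, chains alpha3, alpha4 and alpha5 make the trimer best known from the kidney glomerulus, and alpha5 with alpha6 makes a trimer that joins the alpha1 and alpha2 network in smooth muscle, the aorta included. In human and mouse the genes lie in head-to-head pairs, COL4A1 with COL4A2, COL4A3 with COL4A4 and COL4A5 with COL4A6. The RefSeq sheep assembly also lists the partners of each pair as neighbouring protein-coding genes. Collagens XV and XVIII are proteoglycans of the outer basement membrane zone, and the end of the collagen XVIII chain is released as endostatin, an inhibitor of vessel growth.

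The order of the genes by level was read from the authors' FPKM, which is per transcript length, in run 2. COL4A1 and COL4A2 were the most abundant, with 135 ± 38.4 and 136 ± 36.2 FPKM in the autograft (SD, n = 3), 192 ± 17.7 and 183 ± 25.5 FPKM in aortic sinus and 213 ± 40.1 and 204.5 ± 51.6 FPKM in pulmonary sinus (SD, n = 4 each). These neighbours in the order did not differ beyond their spread in any group. COL18A1 followed at 104 ± 46.4 FPKM in the autograft, 148 ± 21.8 FPKM in aortic and 161 ± 55.3 FPKM in pulmonary sinus, within the spread of COL4A2 in the autograft and in pulmonary sinus. COL15A1 came next at 57.7 ± 6.22, 70.9 ± 8.24 and 77.5 ± 12.1 FPKM in the autograft, aortic and pulmonary groups.

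COL4A5 and COL4A6 stood a step lower. COL4A5 had 16.5 ± 3.70 FPKM in the autograft, 29.2 ± 3.31 FPKM in aortic sinus and 28.3 ± 2.42 FPKM in pulmonary sinus. COL4A6 had 11.4 ± 3.96, 22.6 ± 4.15 and 23.4 ± 4.88 FPKM in the same order of groups, and the ranges of both genes overlapped in each. COL4A3 and COL4A4, the glomerular chains, were the lowest in every group. COL4A3 had 1.03 ± 0.517 FPKM in the autograft, 0.376 ± 0.0477 FPKM in aortic sinus and 0.320 ± 0.0824 FPKM in pulmonary sinus. COL4A4 had 0.354 ± 0.192, 0.150 ± 0.0726 and 0.233 ± 0.0851 FPKM, and its range overlapped with that of COL4A3 in pulmonary sinus only. Some FPKM were identical between libraries, such as 177 FPKM of COL4A1 in autograft replicate 2 and aortic replicates 1 and 2. Differences between groups can be smaller in these FPKM than in counts. For COL4A2 against pulmonary sinus the log2 difference was -0.59 in FPKM + 1 and -1.03 in counts. How the FPKM were made is not stated, and tests were run on the raw counts.

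**Figure D1:**
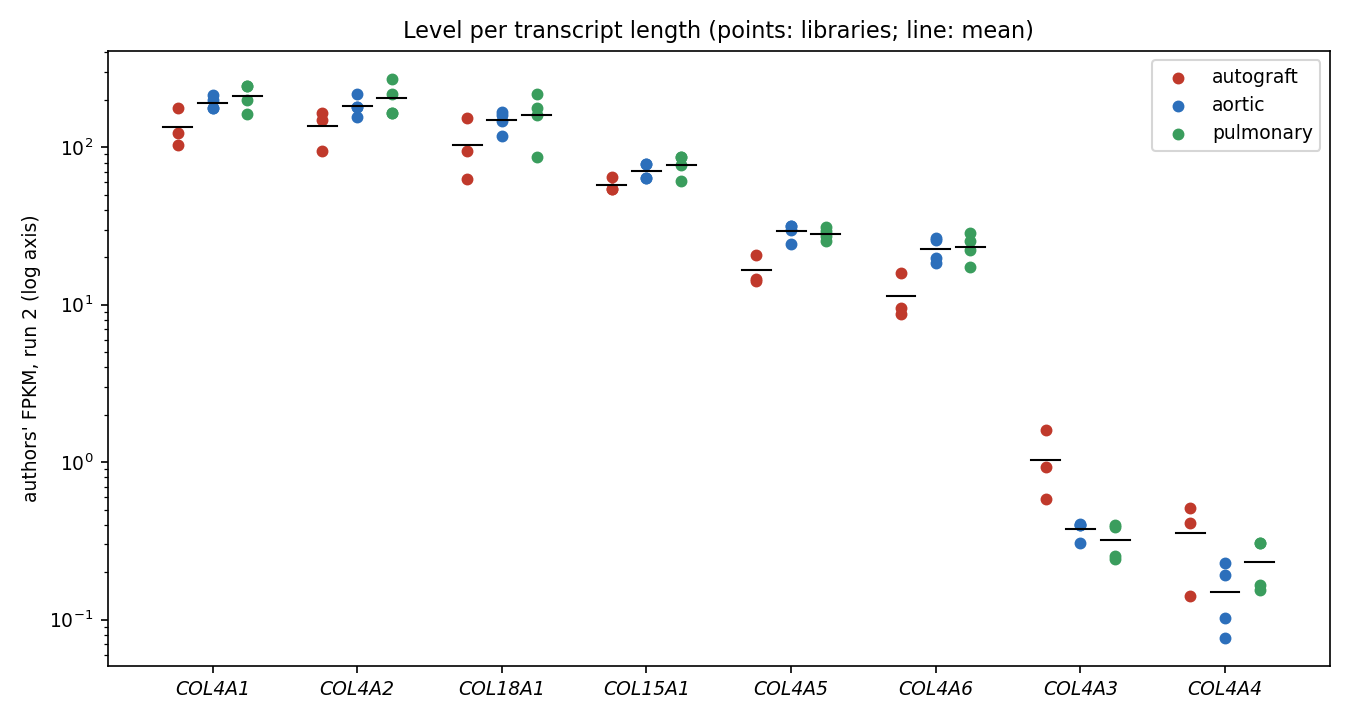
Authors' FPKM of run 2 (log axis) for the 8 genes, ordered by mean level, with 1 point per library and a line at each group mean (autograft n = 3, aortic and pulmonary n = 4). COL4A1 and COL4A2 lie highest, COL4A5 and COL4A6 in between, and COL4A3 and COL4A4 lowest, from 0.0767 to 1.60 FPKM.

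The comparison of the autograft with native pulmonary sinus sets the moved tissue against its native counterpart. COL4A5, of the smooth muscle pair of chains, fell to 111 ± 36.1 CPM in the autograft, against 223 ± 33.4 CPM in pulmonary sinus. Its partner COL4A6 fell to 108 ± 51.1 CPM in the autograft, against 261 ± 70.2 CPM in pulmonary sinus. The weakly expressed COL4A3 rose to 7.61 ± 3.29 CPM in the autograft, against 1.74 ± 0.253 CPM in pulmonary sinus (SD, n = 3 and n = 4 throughout). The other 5 genes did not pass the test. The 3 called genes are 1 higher and 2 lower of 8 members, where 11.3% of all tested genes were called, 6.05% higher and 5.29% lower. A gene was called when its adjusted p in edgeR's quasi-likelihood test (Benjamini-Hochberg over all 14979 genes) was under 0.05. The median log2 fold change of the members was -0.84, and that of all genes tested was 0.00127.

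COL4A5 had 82.9, 99.4 and 152 CPM in the autograft libraries, replicates 1 to 3, against 234, 264, 205 and 188 CPM in the pulmonary libraries, replicates 1 to 4. Every autograft library lay below every pulmonary one. This was a log2 fold change of -0.999 ± 0.222 (SE) with an edgeR adjusted p of 0.0214.

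COL4A6 had 70.4, 86.8 and 166 CPM in the autograft libraries, against 234, 341, 290.1 and 178 CPM in the pulmonary libraries. The groups did not overlap here either, with autograft replicate 3 just below pulmonary replicate 4. In log2 terms the fold change was -1.28 ± 0.33 (SE) with an edgeR adjusted p of 0.0348. Groups that did not overlap and were lower in the autograft were found for 11.2% of all tested genes, and in either direction for 22.1%.

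Neither call held under every alternative. When only autograft and pulmonary libraries were fitted, the edgeR adjusted p was 0.0546 for COL4A5 and 0.0719 for COL4A6. The call of COL4A5 ended without autograft replicate 1 (edgeR adjusted p = 0.0512), autograft replicate 2 (0.0729) or pulmonary replicate 2 (0.0590). That of COL4A6 ended without the same libraries (edgeR adjusted p = 0.0863, 0.107 and 0.09) and without pulmonary replicate 3 (0.0836). Without both autograft replicate 1 and pulmonary replicate 1 the log2 fold changes were -0.82 ± 0.25 and -1.12 ± 0.37 (SE), with edgeR adjusted p of 0.0523 and 0.0729.

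The summed smooth muscle markers moved with this pair: their 3 autograft values lay below all 8 native libraries. Of 6 such markers tested, 3 fell against pulmonary sinus and 0 rose, where 5.29% of all tested genes fell and 6.05% rose. The median log2 fold change of the 6 was -0.87. MYOCD, which encodes the smooth muscle coactivator myocardin, stood at 74.9 ± 20.9 CPM in the autograft (SD, n = 3) against 278 ± 71.0 CPM in pulmonary sinus (SD, n = 4), and the heavy chain gene MYH11 had a log2 fold change of -1.30 ± 0.28 (SE). The call of MYH11 ended without autograft replicate 2, pulmonary replicate 2 or pulmonary replicate 3. That of SMTN, the smoothelin gene at -1.14 ± 0.33, ended without any 1 library other than pulmonary replicate 1. The part of smooth muscle content in the fall of COL4A5 and COL4A6 was not tested. The lowest marker sum was in autograft replicate 1, which was also lowest in both genes and in COL4A1, COL4A2, COL15A1 and COL18A1. In native sinus the order differed in part. Pulmonary replicate 1 had the lowest pulmonary sum, but pulmonary replicate 4 had the least of both genes. Aortic replicate 4 had the lowest aortic sum, but aortic replicate 2 had the least of both genes. Pulmonary replicate 2 had the highest pulmonary sum and the most of both genes.

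COL4A3 had 6.92, 4.72 and 11.2 CPM in the autograft libraries, against 2.09, 1.48, 1.69 and 1.72 CPM in the pulmonary libraries. These values rest on 81 to 197 counts in an autograft library and 26 to 37 counts in a pulmonary one. The lowest autograft library was above the highest native library of either sinus. In COL4A3 the log2 fold change was 2.12 ± 0.30 (SE), the edgeR adjusted p was 0.00639, and the call held in all 11 leave-one-out fits, with adjusted p from 0.00448 to 0.0238. Groups that did not overlap and were higher in the autograft made up 10.9% of all tested genes. On the log2(FPKM + 1) scale, which compresses a gene this low, the difference was 0.60.

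COL4A4, the head-to-head partner of COL4A3, had 2.31, 1.11 and 3.07 CPM in the autograft libraries against 1.58, 0.685, 0.609 and 1.66 CPM in the pulmonary libraries. Autograft replicate 2 lay among the native libraries, so the groups overlapped. For COL4A4 the log2 fold change was 0.93 ± 0.51 (SE) with an edgeR adjusted p of 0.236. COL4A4 had 11 to 54 counts in a library.

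Both genes are known from epithelial basement membranes, and the epithelial and mesothelial markers were low and uneven. Their summed level was 147, 12.1 and 9.31 CPM in autograft replicates 1 to 3, from 4.03 to 49.3 CPM in the aortic libraries and from 3.51 to 9.72 CPM in the pulmonary libraries. EPCAM was at 0 counts in every aortic and every pulmonary library. The library with the most COL4A3, autograft replicate 3, had the lowest of the 3 autograft sums. Of the 5 markers tested against pulmonary sinus 0 passed in edgeR, and 4 had an unadjusted p under 0.05, where 30.6% of all tested genes did. DESeq2 called 2 of these markers and limma-voom 0. The median log2 fold change of the 5 was 3.32, against 0.00127 for all genes tested. Their part in the rise of COL4A3 was not tested. The smallest p against pulmonary sinus belonged to WT1, a mesothelial transcription factor gene, at 2.11 ± 0.67 (log2 fold change ± SE, adjusted p = 0.0636). Against aortic sinus the median of the 5 markers was 1.80, and 0 passed in edgeR. There 1 had an unadjusted p under 0.05, where 23% of all tested genes did. DESeq2 called 1 of the 5 there and limma-voom 0.

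COL4A1 had 554, 1408 and 956 CPM in the autograft libraries, against 1209, 1809, 1719 and 1521 CPM in the pulmonary libraries. Autograft replicate 1 was the lowest of all libraries, while autograft replicate 2 lay within the pulmonary range. COL4A1 thus had a log2 fold change of -0.69 ± 0.26 (SE) with an edgeR adjusted p of 0.103. It passed the threshold without autograft replicate 2, at -1.06 with an edgeR adjusted p of 0.0472. It also passed in limma on log2(FPKM + 1) over genes with a mean FPKM of at least 1 (adjusted p = 0.0493).

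COL4A2 had 262, 761 and 486 CPM in the autograft libraries, against 721, 1347, 1263 and 788 CPM in the pulmonary libraries. Autograft replicate 2 again lay inside the pulmonary range and the other autograft libraries below it. COL4A2 thus had a log2 fold change of -1.03 ± 0.34 (SE) with an edgeR adjusted p of 0.0721. It passed without pulmonary replicate 1 (edgeR adjusted p = 0.0413) and in DESeq2 (0.0178).

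COL18A1, the endostatin precursor gene, had 165, 529 and 314 CPM in the autograft libraries, against 644, 1066, 901 and 256 CPM in the pulmonary libraries. Pulmonary replicate 4 lay among the autograft libraries, and the highest pulmonary value was 4.16 times the lowest. The log2 fold change was -1.09 ± 0.47 (SE) with an edgeR adjusted p of 0.146.

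COL15A1 had 327, 417 and 525 CPM in the autograft libraries, against 616, 475, 731 and 865 CPM in the pulmonary libraries. Autograft replicate 3 lay above pulmonary replicate 2. COL15A1 thus had a log2 fold change of -0.67 ± 0.22 (SE) with an edgeR adjusted p of 0.0716, and DESeq2 gave 0.0250. Unadjusted p was under 0.05 for 7 of the 8 members, COL4A4 being the exception, where 30.6% of all tested genes were.

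**Figure D2:**
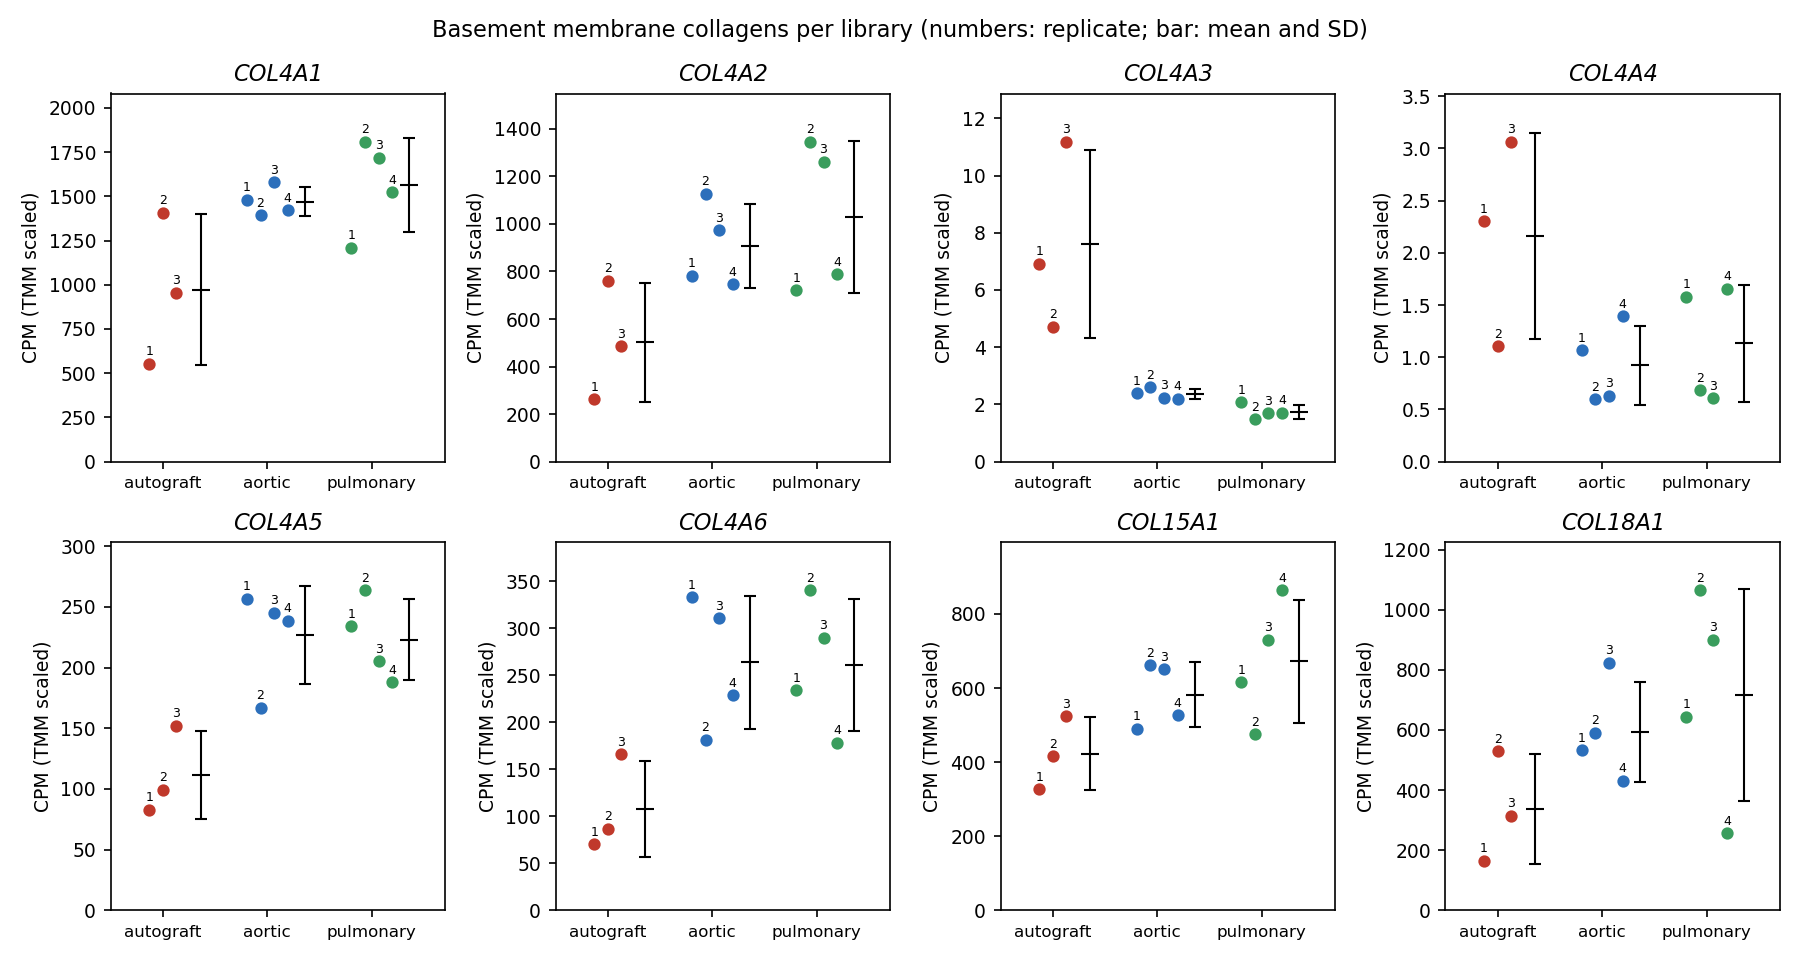
CPM of the 8 genes in each library (y axis, linear from 0) by group (x axis), with the replicate number above each point and the mean and SD beside it (autograft n = 3, aortic and pulmonary n = 4). The autograft points of COL4A5 and COL4A6 lie below, and those of COL4A3 above, all native points. Those of the other 5 genes overlap with the pulmonary points.

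Against native aortic sinus, the tissue normally found where the autograft was placed, COL4A5 fell and COL4A3 rose, and the other 6 genes did not pass. This comparison uses the same autograft libraries as the one with pulmonary sinus, so the results are not independent of each other. Of all tested genes, 0.948% were called higher and 1.43% lower. Together these are 2 of 8 members called, where 2.38% of all tested genes were. The median log2 fold change of the members was -0.71, against 0.00184 for all genes tested.

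COL4A5 had 257, 167, 245 and 239 CPM in aortic replicates 1 to 4, and all 3 autograft values given above were lower. The highest autograft value, 152 CPM, was close to that of aortic replicate 2. The log2 fold change was -1.03 ± 0.22 (SE) with an edgeR adjusted p of 0.0402. Its call ended in 7 of the 11 leave-one-out fits, with adjusted p of up to 0.124. These were the fits without autograft replicate 1 or 2, aortic replicate 1, 3 or 4, or pulmonary replicate 3 or 4. It also ended without both autograft replicate 1 and pulmonary replicate 1 (edgeR adjusted p = 0.0823), without animal D3 (0.0911), and with only autograft and aortic libraries fitted (0.0689).

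COL4A3 had 2.38, 2.6, 2.24 and 2.20 CPM in the aortic libraries, below all 3 autograft libraries. The log2 fold change was 1.69 ± 0.29 (SE) with an edgeR adjusted p of 0.0261. The call ended without autograft replicate 3 (edgeR adjusted p = 0.0513), aortic replicate 1 (0.0652), aortic replicate 3 (0.0860) or aortic replicate 4 (0.0612). It also ended without animal D3 (edgeR adjusted p = 0.0588), with run 1 counts alone (0.0676), and in limma on log2(FPKM + 1) (0.0757) and log2(FPKM + 0.1) (0.0736). Aortic replicate 1 is the library labelled with surgery. Without it the log2 fold change of COL4A3 was 1.69 and that of COL4A5 was -0.96, with edgeR adjusted p of 0.0652 and 0.0935.

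COL4A6 had 333, 181, 311 and 229 CPM in the aortic libraries, above all 3 autograft libraries. Its log2 fold change was -1.29 ± 0.33 (SE), as large as against pulmonary sinus, but the edgeR adjusted p was 0.0646. DESeq2 gave 0.00339, and limma-voom gave 0.0482 without and 0.0505 with a random replicate block by animal. Without autograft replicate 3 the edgeR adjusted p was 0.0335. Members whose groups did not overlap numbered 2 lower, COL4A5 and COL4A6, and 1 higher, COL4A3, where 20.6% of all tested genes did not overlap, 10.8% lower and 9.77% higher.

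The remaining 5 genes overlapped between autograft and aortic sinus. COL4A1 had 1480.3, 1392, 1579 and 1423 CPM in the aortic libraries, a narrow range that took in autograft replicate 2 alone, with a log2 fold change of -0.59 ± 0.26 (SE). COL4A2 had 782, 1127, 973 and 746 CPM in the aortic libraries, with a log2 fold change of -0.85 ± 0.34. COL18A1 had 533, 591, 824 and 431 CPM there, with -0.82 ± 0.47.

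COL15A1 had 490.2, 662, 650.3 and 526 CPM in the aortic libraries, with a log2 fold change of -0.46 ± 0.22 (SE). COL4A4 had 1.07, 0.6, 0.631 and 1.40 CPM there, with 1.22 ± 0.51. Adjusted p in edgeR for these 5 genes ran from 0.172 for COL4A2 to 0.320 for COL18A1.

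The native sinuses were set against each other as aortic against pulmonary. None of the 8 genes passed, and edgeR called 0 of 14979 genes, or 0%, while 306 genes had an unadjusted p under 0.05. DESeq2 and limma-voom also called 0 genes, and 0 of the 8 had an unadjusted p under 0.05. For the smooth muscle pair the aortic and pulmonary means were close, at 227 ± 40.6 and 223 ± 33.4 CPM for COL4A5 and at 264 ± 70.9 and 261 ± 70.2 CPM for COL4A6 (SD, n = 4 each). Their log2 fold changes were 0.03 ± 0.20 and 0.02 ± 0.29 (SE).

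The largest difference between the native sinuses among the members was in COL4A3, with 2.36 ± 0.181 CPM in aortic and 1.74 ± 0.253 CPM in pulmonary sinus (SD, n = 4 each). Each aortic library was above each pulmonary one, as was so for 0.714% of all tested genes, with 1.42% not overlapping in either direction, and the log2 fold change was 0.43 ± 0.28 (SE) with an unadjusted p of 0.148. Those of the remaining 5 genes lay between -0.29 for COL4A4 and -0.09 for COL4A1. COL4A1 was the steadiest gene over the 8 native libraries, from 1209 to 1809 CPM, and COL18A1 the least steady, from 256 to 1066 CPM.

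**Figure D3:**
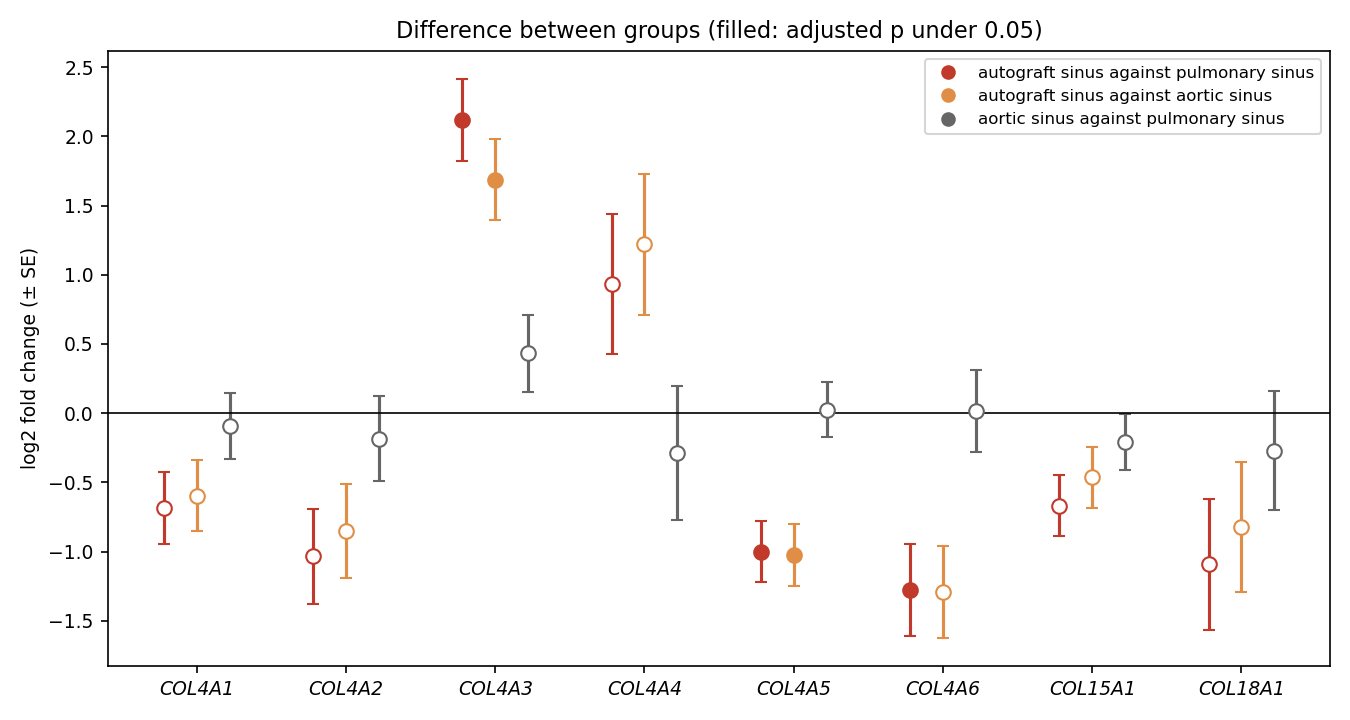
Log2 fold change (y axis, ± SE, edgeR) of the 8 genes in the comparisons of autograft with pulmonary sinus, autograft with aortic sinus and aortic with pulmonary sinus; filled points have an adjusted p under 0.05. Filled points are COL4A3, COL4A5 and COL4A6 against pulmonary sinus and COL4A3 and COL4A5 against aortic sinus, and of the points for aortic against pulmonary sinus that of COL4A3, at 0.43, is the farthest from 0.

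The partners of the gene pairs were compared within each library by the ratio of their counts. Gene length is the same in every library, so the ratio can be compared between libraries, but it is not a ratio of molecules. It was described and not tested. The log2 ratio of COL4A6 over COL4A5 was -0.24, -0.20 and 0.13 in the autograft libraries, 0.38, 0.12, 0.34 and -0.06 in the aortic ones, and -0.001, 0.37, 0.50 and -0.07 in the pulmonary ones. Both partners were low in the autograft, and their ratio there overlapped with that of native sinus.

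The log2 ratio of COL4A2 over COL4A1 was -1.08, -0.89 and -0.98 in the autograft libraries. It lay between -0.93 and -0.31 in aortic and between -0.95 and -0.43 in pulmonary libraries. Aortic replicates 1 and 4 and pulmonary replicate 4 held values like those of the autograft, near 1 COL4A2 count for 2 of COL4A1. The log2 ratio of COL4A4 over COL4A3 was -1.57, -2.06 and -1.86 in the autograft, and spread from -2.07 to -0.65 in aortic and from -1.43 to -0.05 in pulmonary libraries. On these few counts every autograft ratio lay below every pulmonary one and within the aortic range.

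Ratios across the pairs show how the chain mix differed, and these were chosen after the values were seen. COL4A5 stood at 0.150, 0.0706 and 0.159 counts for each COL4A1 count in the autograft libraries, at 0.120 to 0.173 in aortic and at 0.119 to 0.194 in pulmonary libraries. Only autograft replicate 2 was outside the native range, the library with native levels of COL4A1 but low COL4A5. COL4A3 stood at 0.0125, 0.00337 and 0.0117 counts for each COL4A1 count in the autograft, above the native range of 0.00084 to 0.00189 in all 3 libraries. COL4A3 thus stayed a small part of the collagen IV counts in every library.

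**Figure D4:**
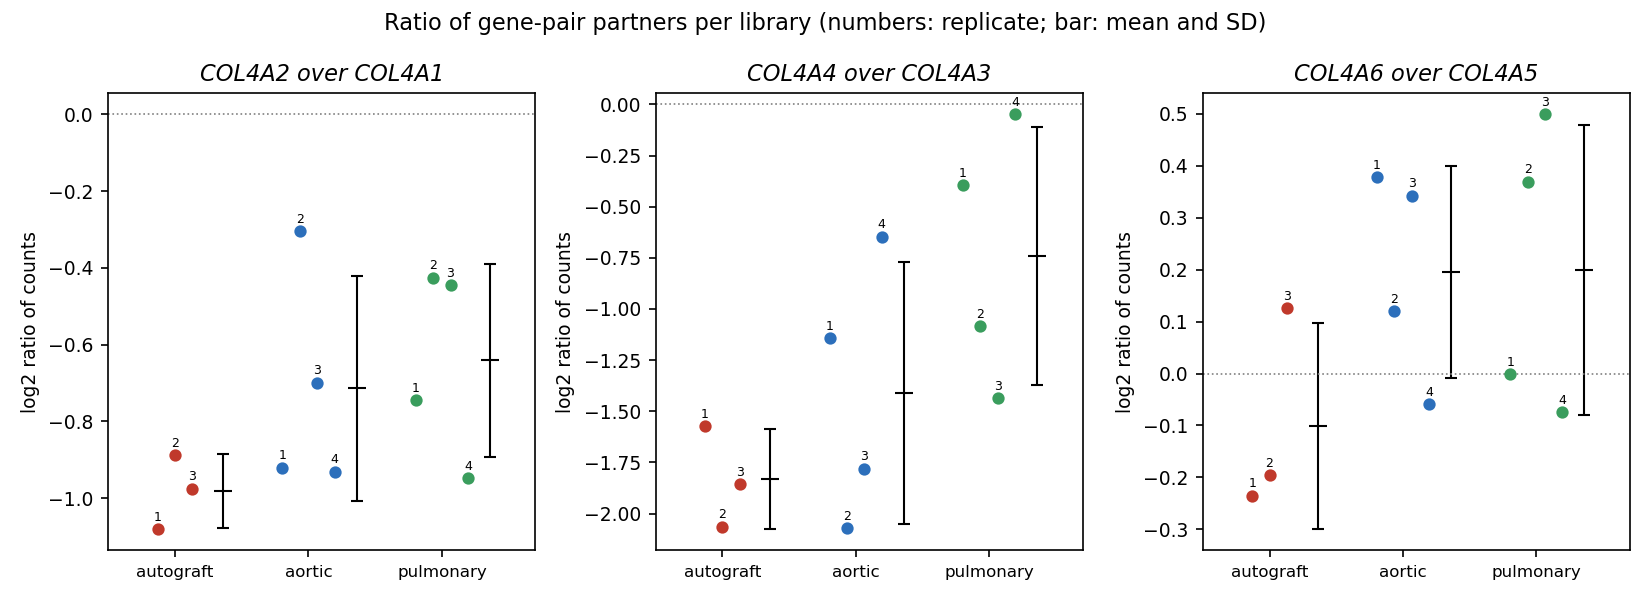
Log2 ratio of the counts of gene-pair partners (y axis) in each library by group (x axis), with the replicate number above each point and the mean and SD beside it (autograft n = 3, aortic and pulmonary n = 4). All autograft values of COL4A4 over COL4A3, from -2.06 to -1.57, lie below the pulmonary values but within the aortic range, and in the other panels the groups overlap.

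How closely partners moved together was described by Pearson's r of log2 CPM over the 11 libraries, all scaled together, with no test. COL4A5 and COL4A6 had an r of 0.97. Among the other 14978 tested genes COL4A6 ranked 1 by likeness to COL4A5, and COL4A5 ranked 2 by likeness to COL4A6. After the group means were removed the r was 0.91 and the ranks were 8 and 16. The annotated spans of COL4A5 and COL4A6 overlap in the RefSeq assembly. The sources used here do not state how the counting treated strand. Whether counted reads came from that overlap was not tested.

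COL4A1 and COL4A2 had an r of 0.95, with COL4A2 ranked 8 for COL4A1 and COL4A1 ranked 14 for COL4A2. Within groups the r was 0.89 and the ranks were 92 and 119. COL4A3 and COL4A4 had an r of 0.70, with COL4A4 ranked 1335 for COL4A3 and COL4A3 ranked 892 for COL4A4. Within groups their r was 0.59 and the ranks were 688 and 1415.

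Besides COL4A6, the genes most like COL4A5 included ATP2A2 (r = 0.95, and 0.77 within groups), a calcium pump gene of the sarcoplasmic reticulum. COL4A6 was most like NTRK3 (r = 0.98), a neurotrophin receptor gene, and LRP5 (0.97), a Wnt coreceptor gene. The transcriptional corepressor gene CTBP1 was the gene nearest to both COL4A1 (0.96) and COL4A2 (0.97), followed for COL4A1 by HHIPL1 (0.96) and ZC3H18 (0.96) and for COL4A2 by WRNIP1 (0.97) and ZC3H18 (0.97). COL18A1 was nearest to BRD1 (0.95), AGK (0.95) and NACC1 (0.93), and COL15A1 to AMOTL1 (0.91), the caveolin gene CAV1 (0.91) and FZD6 (0.90). COL4A3 was nearest to FMOD (0.95), the fibromodulin gene, SDF4 (0.95) and RPL23A (0.95). Within groups its r was 0.68 with FMOD, 0.61 with SDF4 and 0.84 with RPL23A. COL4A4, on its few counts, was nearest to GOSR1 (0.97), the ribosomal protein gene RPL22 (0.95) and SRP14 (0.95). Apart from ATP2A2, FMOD and SDF4, the genes named here had an r within groups of at least 0.815.

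Other genes of the basement membrane moved in both directions against pulmonary sinus. Of 18 other basement membrane components tested, laminins and perlecan among them, 4 rose and 4 fell, with a median log2 fold change of 0.18. Over all tested genes 6.05% rose and 5.29% fell in this comparison. HSPG2, the gene of perlecan, had 473 ± 120 CPM in the autograft (SD, n = 3) against 983 ± 157 CPM in pulmonary sinus (SD, n = 4), or -1.06 ± 0.22 as log2 fold change ± SE. LAMA4, a laminin chain gene of vessels, had 389 ± 33.2 CPM in the autograft against 640 ± 36.7 CPM in pulmonary sinus (-0.72 ± 0.14). LAMA3, a laminin chain gene of epithelia, rose to 9.99 ± 3.59 CPM in the autograft, against 2.39 ± 1.34 CPM in pulmonary sinus (2.06 ± 0.42). COL8A1, a short-chain network collagen gene, stood at 350.2 ± 48.3 CPM in the autograft against 70.5 ± 56.6 CPM in pulmonary sinus (2.31 ± 0.55).

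Adjusted p in edgeR for these 4 genes ran from 0.0149 to 0.0256. The call of HSPG2 ended without pulmonary replicate 3, that of LAMA4 without autograft replicate 2, and that of LAMA3 without either of these libraries. The call of COL8A1 ended without autograft replicate 1 or 2 or without pulmonary replicate 2, 3 or 4. Against aortic sinus 0 of the 18 passed in edgeR, while 8 had an unadjusted p under 0.05, where 23% of all tested genes did. DESeq2 called 3 of the 18 and limma-voom 0.

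The genes that fold, secrete and crosslink collagen IV did not pass in any comparison, 0 of 15 in edgeR. Against pulmonary sinus 3 of them had an unadjusted p under 0.05, with 1 call in DESeq2 and 0 in limma-voom, and against aortic sinus all of these counts were 0. Such a p was found for 30.6% of all tested genes against pulmonary and 23% against aortic sinus. P4HB, a subunit of prolyl hydroxylase, was nearest to the threshold against pulmonary sinus at 609 ± 43.8 CPM in the autograft (SD, n = 3) and 467 ± 39.6 CPM in pulmonary sinus (SD, n = 4), with an adjusted p of 0.0599. Over all tested genes 6.05% rose against pulmonary and 0.948% against aortic sinus. Of 9 genes of collagen IV and endostatin receptors, 1 rose in each autograft comparison. This was ITGA2, the integrin alpha2 chain of collagen receptors, at 9.51 ± 3.66 CPM in the autograft (SD, n = 3) against 2.08 ± 0.783 CPM in aortic and 2.47 ± 1.32 CPM in pulmonary sinus (SD, n = 4 each). Its adjusted p in edgeR was 0.0365 against aortic and 0.0233 against pulmonary sinus. Against aortic sinus its call ended without autograft replicate 2 or 3, any aortic library or pulmonary replicate 3, and against pulmonary sinus without autograft replicate 2 or 3 or pulmonary replicate 2 or 3.

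Of 9 tested genes of enzymes that cut basement membrane collagens, 2 rose and 0 fell in each autograft comparison. The shares of all tested genes that rose were 6.05% against pulmonary and 0.948% against aortic sinus. MMP2, the gelatinase A gene, whose product degrades collagen IV, stood at 584 ± 110.4 CPM in the autograft (SD, n = 3) against 156 ± 28.9 CPM in aortic and 138 ± 42.7 CPM in pulmonary sinus (SD, n = 4 each). Its log2 fold change was 1.90 ± 0.26 and 2.08 ± 0.26 (SE), and both calls held in all 11 leave-one-out fits. CTSV, a cysteine cathepsin gene, had 141 ± 19.0 CPM in the autograft (SD, n = 3) against 85.4 ± 4.77 CPM in aortic and 90.2 ± 18.0 CPM in pulmonary sinus. Against aortic sinus its call ended without autograft replicate 1 or 2, any aortic library or pulmonary replicate 3, and against pulmonary sinus without autograft replicate 1 or 2 or pulmonary replicate 2 or 3.

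The markers of other cell types with basement membranes were uneven. Endothelial markers, 13 genes, summed to 198, 1859 and 1050.4 CPM in autograft replicates 1 to 3, from 307 to 727 CPM in aortic and from 174 to 503 CPM in pulmonary libraries. Of these 13 genes 2 rose against pulmonary sinus, NOS3 (3.03 ± 0.70) and TEK (2.41 ± 0.65), where 6.05% of all tested genes did. The median log2 fold change of the 13 there was 1.91, 10 had an unadjusted p under 0.05, DESeq2 called 5 and limma-voom 1. None passed against aortic sinus, 0 in edgeR, DESeq2 or limma-voom, with 4 at an unadjusted p under 0.05. Such a p was found for 30.6% of all tested genes against pulmonary and 23% against aortic sinus. The call of NOS3 ended without autograft replicate 2 or pulmonary replicate 2, 3 or 4, and that of TEK in 7 of the 11 leave-one-out fits. Autograft replicate 2, with the highest endothelial sum, also had the most COL4A1, COL4A2 and COL18A1 of the autograft libraries, and replicate 1, with the lowest, had the least. Among pulmonary libraries the order differed: replicate 1 had the highest endothelial sum and the least COL4A1 and COL4A2. The part of endothelial content in these values was not tested.

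Pericyte markers, 6 genes, summed to 611 to 1214 CPM in the autograft, 745 to 1150 CPM in aortic and 729 to 977 CPM in pulmonary libraries. Of 5 tested against pulmonary sinus 1 fell, where 5.29% of all tested genes did. This was ABCC9 at -0.42 ± 0.12 (SE), a call that ended in 9 of the 11 leave-one-out fits. Against aortic sinus 0 passed in edgeR, and CSPG4 had an edgeR adjusted p of 0.0701. An unadjusted p under 0.05 was found there for 1 marker, where 23% of all tested genes had one. DESeq2 called 1 marker and limma-voom 0. Fibroblast markers, 7 genes, summed to 20351 to 29454 CPM in the autograft. This was above all native libraries (9829 to 11209 CPM in aortic and 5531 to 13931 CPM in pulmonary sinus). COL3A1 and DCN made up much of the autograft sum, at 9369 ± 3693 and 5101 ± 913 CPM (SD, n = 3). COL1A1, a fibrillar collagen gene, was 4435 ± 679 CPM in the autograft (SD, n = 3) against 2021 ± 404 CPM in aortic and 1660 ± 336 CPM in pulmonary sinus (SD, n = 4 each). Of the 7 fibroblast markers 3 rose against pulmonary sinus, COL1A1, DCN (1.40 ± 0.31, log2 fold change ± SE) and COL3A1 (1.32 ± 0.30), and COL1A1 and DCN rose against aortic sinus. Over all tested genes 6.05% rose against pulmonary and 0.948% against aortic sinus. Against pulmonary sinus the call of COL1A1 held in all 11 leave-one-out fits, that of DCN ended without pulmonary replicate 3, and that of COL3A1 ended without autograft replicate 1 or 2 or pulmonary replicate 2 or 3. Against aortic sinus the call of COL1A1 ended in 5 of those fits and that of DCN in 9.

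Schwann cell markers, 7 genes, summed to 61.2 to 110 CPM in the autograft, 86.8 to 292 CPM in aortic and 81.8 to 141 CPM in pulmonary libraries, and 0 passed in edgeR in any comparison. Against pulmonary sinus 3 had an unadjusted p under 0.05, with 2 calls in DESeq2 and 0 in limma-voom. Over all tested genes 30.6% had such a p there, and edgeR called 6.05% higher and 5.29% lower. Against aortic sinus these shares were 23%, 0.948% and 1.43%. CDH19 came nearest against pulmonary sinus, at -1.51 ± 0.46 (log2 fold change ± SE, adjusted p = 0.0559). Adipocyte markers, 7 genes, ranged from 32.7 to 463 CPM in the autograft, 77.9 to 377 CPM in aortic and 58.1 to 218 CPM in pulmonary libraries. Of the adipocyte markers LPL rose (2.56 ± 0.68) and PLIN4 fell (-1.67 ± 0.36) against pulmonary sinus. The call of LPL ended in 6 of the 11 leave-one-out fits, and that of PLIN4 ended without autograft replicate 2 or pulmonary replicate 2 or 3. Cardiomyocyte markers, 6 genes, summed to 16.6 to 173 CPM in the autograft, 65.7 to 354 CPM in aortic and 102 to 318 CPM in pulmonary libraries, with 0 of 5 passing in edgeR. In each autograft comparison 1 of them had an unadjusted p under 0.05, with 1 call in DESeq2 and 0 in limma-voom. T cell and macrophage markers, 7 genes, summed to 95.1 to 832 CPM in the autograft, 88.0 to 261 CPM in aortic and 36.1 to 202 CPM in pulmonary libraries. Of these 7, CD3E (3.06 ± 0.45), CD3D (3.29 ± 0.91) and CD68 (1.68 ± 0.47) rose against pulmonary sinus, and CD3E rose against aortic sinus (2.15 ± 0.43). Against pulmonary sinus the call of CD3E held in all 11 leave-one-out fits, and those of CD3D and CD68 ended in 9 each. Against aortic sinus the call of CD3E ended in 7, those without any 1 autograft or aortic library. The part of these cell types in the members' values was not tested.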

How the data were processed

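Total RNA was extracted with TRIzol and sequenced from TruSeq libraries, per the labels' protocols. Tools listed in the submitters' processing notes are STAR 2.5.2b, featureCounts 1.5.3, Bowtie2 2.3.3.1 and cutadapt. The sources used here do not state genome build, annotation or strand setting. Each run has a deposited table of raw counts by gene symbol, and the row without a gene name (at most 0.000522% of counts) was left out. The deposited FPKM tables list 15272 genes in run 1 and 15080 in run 2, none at 0, and how the authors made these FPKM is not stated.

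The 2 runs of a library were far closer (chi-square per gene at most 1.52) than libraries of a group (at least 31.9), and their counts were added. Genes were filtered with filterByExpr (minimum count 10), scaled by TMM and tested in 1 edgeR quasi-likelihood fit of all 3 groups (edgeR 4.0.16 in R 4.3.3). The fit was also run on simulated counts with no pairing by animal and no outlying library. How it does on libraries as uneven as these was not tested. The SE given with an edgeR log2 fold change was derived from the test. It is the absolute log2 fold change divided by the square root of the quasi-likelihood F. Levels for r used log2 CPM with a prior count of 2, ratios an offset of 0.5 counts. Of 132 listed genes 128 were found, 5 of them by gene number in RefSeq (ARS-UI_Ramb_v3.0), used for names and neighbours only.

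From each list the text names up to 4 called genes with the smallest p per comparison, or else the gene with the smallest p, and for each member the 3 symbols with the highest r and a mean of at least 5 CPM. Genes with the smallest p between native sinuses, where 0 of each list passed, and those of some cell type lists are left unnamed. Some genes that this rule would name are not reported here. The members and lists were chosen with earlier results of these data known. Alternatives were another normalization, tool, filter, unit, run and set of groups (DESeq2 1.42.0 and limma 3.58.1 being the other tools), each library left out, and blocks by animal. Native libraries are paired by the animal in the labels. The deviations of the pair from their group means correlated at -0.18 in D3, -0.13 in D4, 0.43 in D5 and 0.45 in D6.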

Additional observations from a re-analysis of the deposited data

Results flagged for a closer look

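Among 22 sets of 4 native libraries checked for a library far from the others (8 genes and 3 pair ratios in each sinus), 1 stood out, and chance flags about 1 in 20. COL4A5 in aortic sinus had 167 CPM in replicate 2 against 239 to 257 CPM in the other aortic libraries. The gap to the nearest library was 0.830 of the group's range on the log2 CPM scale, just above Dixon's limit for 4 libraries.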

How the results depend on the processing

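The 24 log2 fold changes of the members (8 genes in 3 comparisons) were recomputed 578 times in all. No called value turned its direction, 541 stayed on their side of the threshold, 29 lost their call and 8 gained one. COL4A3 stayed called against pulmonary sinus under every alternative in which it was fitted. The number of members called against pulmonary sinus was 3, and it was 5 in DESeq2, 1 with only the 2 groups compared, 1 without both autograft replicate 1 and pulmonary replicate 1 (chosen after seeing the data), and from 1 to 4 with each library left out. Against aortic sinus it was 2, and it was 1 with only the 2 groups compared, 1 with run 1 counts, 1 with FPKM + 1, 1 with FPKM + 0.1, 1 with FPKM + 1 and a mean FPKM of at least 1, 1 without the same 2 libraries, 0 without animal D3 (edgeR), and from 0 to 2 with each library left out. Called genes against pulmonary sinus numbered 1699, with 3019 in DESeq2, 479 with only the 2 groups and 452 to 2753 with each library left out. Against aortic sinus they numbered 356, with 1462 in DESeq2, 110 without animal D3, 61 without aortic replicate 1 and 25 to 576 with each library left out. The mean log2 ratio of COL4A4 over COL4A3 in the autograft was -2.16 in run 1 and -1.83 in both runs. Ranks by likeness within groups were 92 for COL4A2 with COL4A1, 119 for COL4A1 with COL4A2, 688 for COL4A4 with COL4A3, 1415 for COL4A3 with COL4A4, 8 for COL4A6 with COL4A5 and 16 for COL4A5 with COL4A6. The random replicate block by animal (correlation 0.122) and, between native sinuses, the fixed replicate block changed no call of a member made in edgeR. Set against limma-voom without the block, the random block ended 1 call, that of COL4A6 against aortic sinus (adjusted p = 0.0505, against 0.0482 without the block). Against pulmonary sinus 3 were called with the random block, against aortic sinus 2, and between native sinuses 0 with either block in limma-voom and edgeR. The cause of the lost and gained calls was not tested.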
